A study of Caenorhabditis elegans with 2 samples.

Results

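The gene cog-1 (WBGene00000584, sequence name R03C1.3) encodes COG-1, the homeodomain protein whose own chromatin immunoprecipitation with sequencing (ChIP-seq) is described here for its own locus. The stretch examined runs on chromosome II from the last base of the upstream neighbour R05H10.3 to the last base of cog-1, chrII:14883054-14907533 of the ce11 genome build of Caenorhabditis elegans, and spans 24480 bp. Regions of the authors' lists were taken as members when their summit, the position of highest signal, lay in that stretch. The stretch held 1 of the 1841 peaks of the list thresholded by the irreproducible discovery rate (IDR), 20 of the 22583 regions of the pooled list, 17 of the 21617 regions of replicate 1 and 24 of the 20247 regions of replicate 2.

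The 2 samples are biological replicates of 1 group. They are hermaphrodite mid-embryos of strain OP541, whose genotype is unc-119(tm4063) III with the transgene wgIs541, collected as whole organisms 3 h after synchronization by bleaching of eggs. In the transgene COG-1 is fused at its C-terminus to a GFP-FLAG tag, and the immunoprecipitation used an antibody against GFP. No untagged strain, other stage or input library was among the samples analysed here, so no comparison between conditions was possible. The labels do not say how much of the cog-1 locus the transgene carries, how many copies were integrated or which cells made the tagged protein. Reads from a copy of the locus in the transgene and reads from the locus on chromosome II fall on the same coordinates, so the contributions of both to the values below cannot be told apart.

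COG-1 belongs to the NK6 family of homeodomain transcription factors, and homeodomain proteins commonly bind short DNA words around a TAAT core. In the left-right pair of ASE taste neurons COG-1 promotes the fate of the right cell, while in the left cell the microRNA lsy-6 represses it through its messenger RNA, and it is also required in the vulva and uterus. Genes for developmental transcription factors often have long upstream intergenic sequence in which many regulatory proteins bind.

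The annotation places cog-1 on the forward strand at chrII:14902493-14907533. Transcript R03C1.3a.1 begins at 14902493 and the shorter R03C1.3b.1 at 14903130, and positions below are in kb from the start of R03C1.3a.1, negative when upstream. The upstream part of the stretch measured 19439 bp, against a median of 938 bp over all 19973 protein-coding genes, of which 124 (0.621%) had an upstream part at least as long. The gene body holds intron 1 of 300 bp, intron 2 of 1541 bp and intron 3 of 2009 bp. There are 4 annotated non-coding genes within the stretch: Y53F4A.4 and Y53F4A.5, which overlap on opposite strands at chrII:14893746-14893812, R03C1.5, and R03C1.6, which lies in intron 2 on the reverse strand.

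The reference sequence is shown for the sites on which the results turn: the promoter site, and the other sites that reached a q-value under 0.05 in the pooled list or were among the strongest of a replicate in the stretch. Each is the forward strand, 5′ to 3′, of the RefSeq copy of WBcel235, which is the same sequence as ce11. The windows are 101 bp long and centred on a summit, except the promoter site, whose 215 bp reach from 50 bp before the pooled summit to beyond the replicates' summits. Capitals mark TAAT or its reverse complement ATTA, and where cores overlap the capitals run together.
Distal site at -17.47 kb, chrII:14884974-14885074: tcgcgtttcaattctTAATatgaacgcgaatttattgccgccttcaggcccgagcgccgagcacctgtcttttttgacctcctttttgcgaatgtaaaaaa
Upstream site at -11.5 kb, chrII:14890944-14891044: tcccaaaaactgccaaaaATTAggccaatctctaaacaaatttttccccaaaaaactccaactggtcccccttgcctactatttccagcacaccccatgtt
Upstream site at -8.453 kb, chrII:14893990-14894090: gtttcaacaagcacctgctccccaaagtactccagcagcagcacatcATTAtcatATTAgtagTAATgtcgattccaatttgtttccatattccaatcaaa
Promoter site at -0.56 kb, chrII:14901883-14902097: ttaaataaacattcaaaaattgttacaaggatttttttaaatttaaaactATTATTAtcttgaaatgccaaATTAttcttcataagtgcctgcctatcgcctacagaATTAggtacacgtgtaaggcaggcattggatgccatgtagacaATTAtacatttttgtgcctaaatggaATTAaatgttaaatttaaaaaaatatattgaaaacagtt
Intron 2 site at 0.874 kb, chrII:14903317-14903417: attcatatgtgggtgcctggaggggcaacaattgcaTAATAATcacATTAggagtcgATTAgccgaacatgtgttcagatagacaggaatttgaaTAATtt
Intron 2 site at 1.384 kb, chrII:14903827-14903927: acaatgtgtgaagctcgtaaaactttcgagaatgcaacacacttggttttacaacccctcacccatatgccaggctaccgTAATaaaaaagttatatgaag
Intron 3 site at 2.828 kb, chrII:14905271-14905371: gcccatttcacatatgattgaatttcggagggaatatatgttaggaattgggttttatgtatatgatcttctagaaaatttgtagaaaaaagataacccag

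The promoter site, centred 0.56 kb upstream of cog-1, was the strongest region of the stretch in the pooled list and its single IDR peak. The region spans chrII:14901708-14902157 in intergenic sequence. Its signal, the authors' value per region, was 89.8, which ranked 1394 among the 22583 pooled regions, or at 6.17% of the list counted from the strongest. Within the IDR list it stood at 75.7% of the ranks, among the weaker peaks. The IDR list consists of the 1841 pooled regions of highest signal, so membership gives the pooled rank and does not by itself show that a region ranked alike in both replicates. The stretch had 1 IDR peak among its 20 pooled regions, against 8.15% of all pooled regions. In whole embryos, binding in few cells and weaker binding in many cannot be told apart.

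Each replicate had a region of its own at the promoter site. Replicate 1 placed the summit at 14902047 with a signal of 40.81 and rank 1406 (6.5% of its list). Replicate 2 placed it at 14902040 with a signal of 43.74 and rank 1984 (9.8%). The replicates' summits were 7 bp apart, 446 and 453 bp before the annotated start, and they lay 114 and 107 bp nearer to the gene than the pooled summit at 14901933. The pooled list had a weaker second region beside it with its summit at 14902169, a signal of 32.87 and rank 10550, so the replicates' summits fell between the pooled ones. The authors' q-values were 0.0125 in replicate 1, 0.000756 in replicate 2 and 0.000358 in the pooled list. This was the one site of the stretch with a q-value under 0.05 in both replicates. The sequence printed for it holds 6 TAAT cores at a GC content of 27.0%, and the longer word TTAATT occurs in it once, on the reverse strand at chrII:14902058-14902063.

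**Figure D1:**
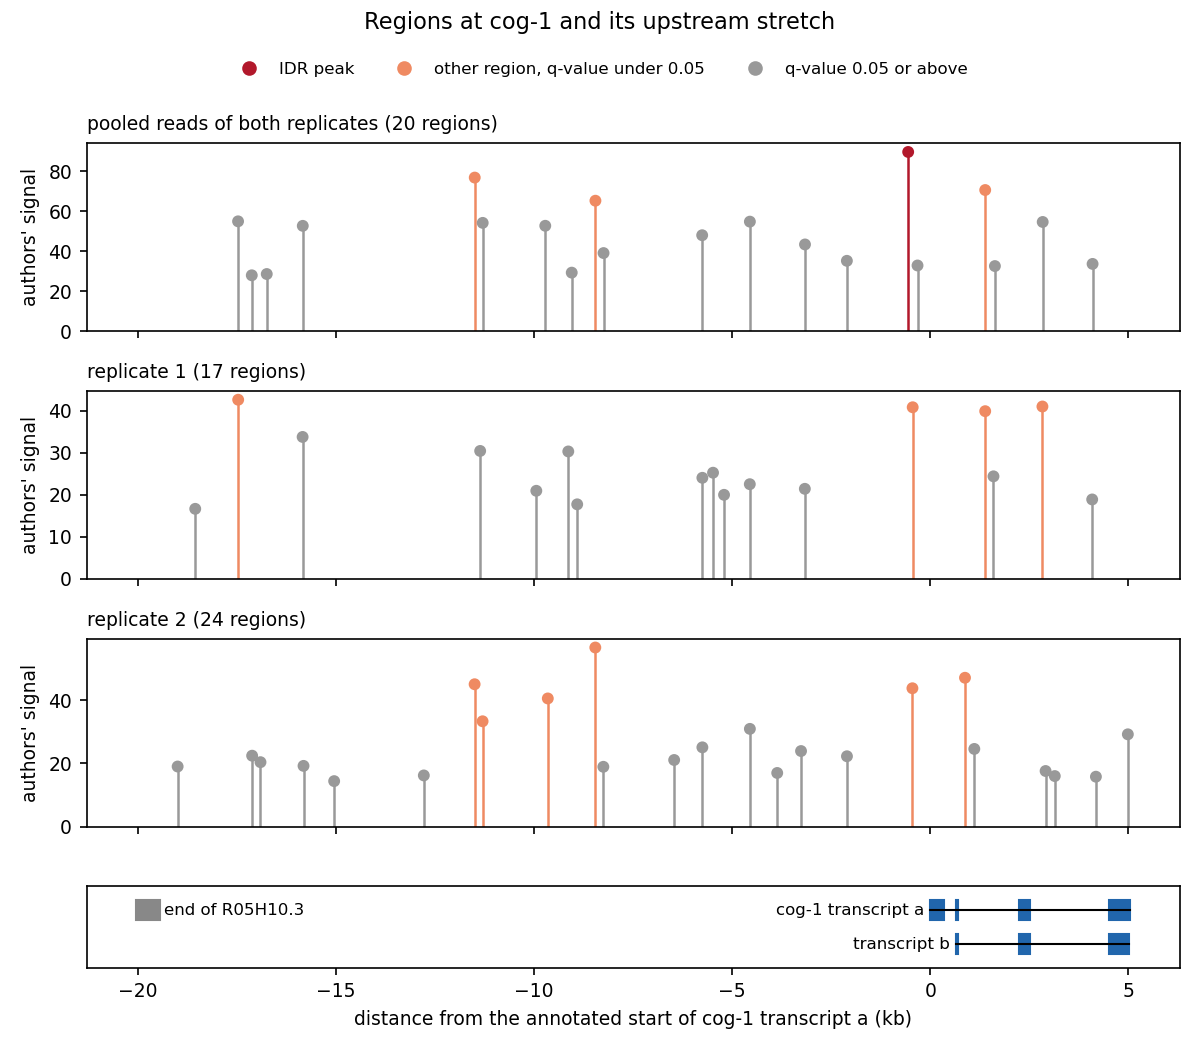
The horizontal axis is the distance in kb from the start of transcript R03C1.3a.1, and each stem is a region drawn at its summit with the authors' signal as its height, in the pooled list and in each replicate, above a map of the exons of both cog-1 transcripts. The single IDR peak stands at -0.56 kb with a signal of 89.8, and further regions with a q-value under 0.05 lie upstream and in the introns at other places in each replicate.

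Regions lay along much of the upstream part and in the larger introns. No summit lay between -15.84 and -11.5 kb in the pooled list, or between -15.84 and -11.36 kb in replicate 1. Between those places replicate 2 had weak regions at -15.05 and -12.78 kb, at 98.8% and 77.5% of its ranks. In the pooled list 16 summits were upstream, 2 were in intron 2 and 2 in intron 3. Replicate 1 had 13 upstream, 2 in intron 2 and 2 in intron 3, and replicate 2 had 18 upstream, 2 in intron 2, 3 in intron 3 and 1 in the untranslated part of the last exon. None lay in the 768 bp of coding exon, which made up 3.14% of the stretch, nor in intron 1. Per kb, the upstream part held 0.823 pooled regions and the gene body 0.794. The order was the reverse in the replicates' own lists, with 0.669 upstream and 0.794 in the gene body in replicate 1. In replicate 2 the values were 0.926 and 1.19. Many neighbouring regions overlapped: the 20 pooled regions, each 450 bp wide, merged into 14 blocks that covered 7911 bp, or 32.3% of the stretch. Overlapping regions share reads and are not independent observations.

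Besides the promoter site, 3 pooled regions had a q-value under 0.05. The region at -11.5 kb had a signal of 76.95 (rank 1871, q = 0.00241), the one at -8.453 kb a signal of 65.35 (rank 2490, q = 0.0135) and the one at 1.384 kb, in intron 2, a signal of 70.71 (rank 2164, q = 0.00578). The sites at -11.5 and -8.453 kb had a summit of replicate 2 at 3 bp. The nearest summit of replicate 1 was 137 bp from the first and nearer to the pooled region at -11.3 kb, and 460 bp from the second. The intron 2 site coincided with a summit of replicate 1 at 0 bp and had no summit of replicate 2 within 150 bp. In all, 4 of 20 pooled regions had a q-value under 0.05, against 13.2% of the whole pooled list. The counts were 4 of 17 in replicate 1, against 9.4% of its list, and 6 of 24 in replicate 2, against 17.4% of its list.

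In replicate 1 the strongest region was the distal site, with its summit at 14885024, a signal of 42.6 and rank 1285 (5.94%, q = 0.00895). No summit of replicate 2 lay within 150 bp of it, and the nearest was 352 bp away with a signal of 22.42 and rank 7431. The intron 3 site at 2.828 kb followed with a signal of 40.99 and rank 1388 (q = 0.0119). There, replicate 2 had a region 80 bp away with a signal of 17.58 and rank 13080. The promoter site came next, and the intron 2 site at 1.384 kb after it with a signal of 39.88 and rank 1475 (q = 0.0153). These 4 regions lay within ranks 1285 to 1475 of the list of replicate 1, and of them only the promoter site also had a q-value under 0.05 in replicate 2.

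In replicate 2 the strongest region was at -8.456 kb, with a signal of 56.62 and rank 1200 (5.93%, q = 0.000306). Its summit lay 225 bp from Y53F4A.4, and the nearest summit of replicate 1 was 457 bp away. The next region, with a signal of 47.06 and rank 1715 (q = 0.000875), had its summit in intron 2 at 0.874 kb, inside the non-coding gene R03C1.6 and 237 bp after the start of R03C1.3b.1. Replicate 1 had no summit nearer than 510 bp to it. The region at -11.5 kb had a signal of 45.01 and rank 1889 (q = 0.000794). A summit of replicate 1 lay 140 bp from it, but that one was paired with the nearer region of replicate 2 at -11.3 kb. The promoter site followed with rank 1984, then a region at -9.655 kb with a signal of 40.52 (q = 0.00283) and the one at -11.3 kb with a signal of 33.3 (q = 0.0336). Apart from the promoter site, the regions with a q-value under 0.05 thus lay at different places in the replicates. The difference depends on the threshold and on summit distance. Replicate 1 had a region paired with the one at -11.3 kb, at rank 2753 (q = 0.15). Its distal region and its intron 2 region at 1.384 kb overlapped regions of replicate 2 with q-values of 0.445 and 0.312.

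The other 16 pooled regions had q-values of 0.085 or more and signals between 27.95 and 55.01. The weakest lay at -17.13 kb. Among the other upstream sites, 5 had a summit in each replicate within 100 bp, at -15.84, -11.3, -5.759, -4.555 and -3.164 kb, with pooled signals of 52.75, 54.24, 48.04, 54.86 and 43.42. At -15.84 kb the ranks were 2163 in replicate 1 and 10678 in replicate 2, and at -11.3 kb they were 2753 in replicate 1 and 3263 in replicate 2. At -4.555 kb the summits were within 2 bp of each other, and in replicate 2 the summit was 178 bp before R03C1.5, with ranks 6445 in replicate 1 and 3778 in replicate 2. At -5.759 kb both replicates put the summit at 14896739, with rank 5285 in replicate 1 and 5737 in replicate 2. All 5 sites were weaker than the promoter site in every list. The one at -11.3 kb had a q-value under 0.05 in replicate 2 (q = 0.0336), and the other 4 in no list.

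Matching summits within 150 bp, each used once, paired 8 of the 17 regions of replicate 1 with a region of replicate 2 (47.1%, exact Clopper-Pearson 95% interval 23.0 to 72.2%). The same share over all regions of replicate 1 was 32.3%, and over those within the same range of ranks 34.2%, both inside that interval. Such intervals cover counting error only. In the other direction 9 of 24 regions of replicate 2 were matched (37.5%, interval 18.8 to 59.4%), against 34.5% of its whole list. The ninth had its partner 30 bp past the end of cog-1. The summits of the 8 pairs were 0 to 96 bp apart. In 5 of the 8 pairs the percent ranks lay close together, as the plot of ranks in each replicate shows. The 3 pairs that stood apart were at 4.084 kb, with 49.8% in replicate 1 and 81.6% in replicate 2, at -15.84 kb, with 10.0% in replicate 1 and 52.7% in replicate 2, and at 2.828 kb, with 6.42% in replicate 1 and 64.6% in replicate 2. Spearman's rho of the percent ranks was 0.24 over these 8 pairs and 0.63 over the 6986 pairs of the genome, given as descriptions, since neighbouring regions share reads.

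**Figure D2:**
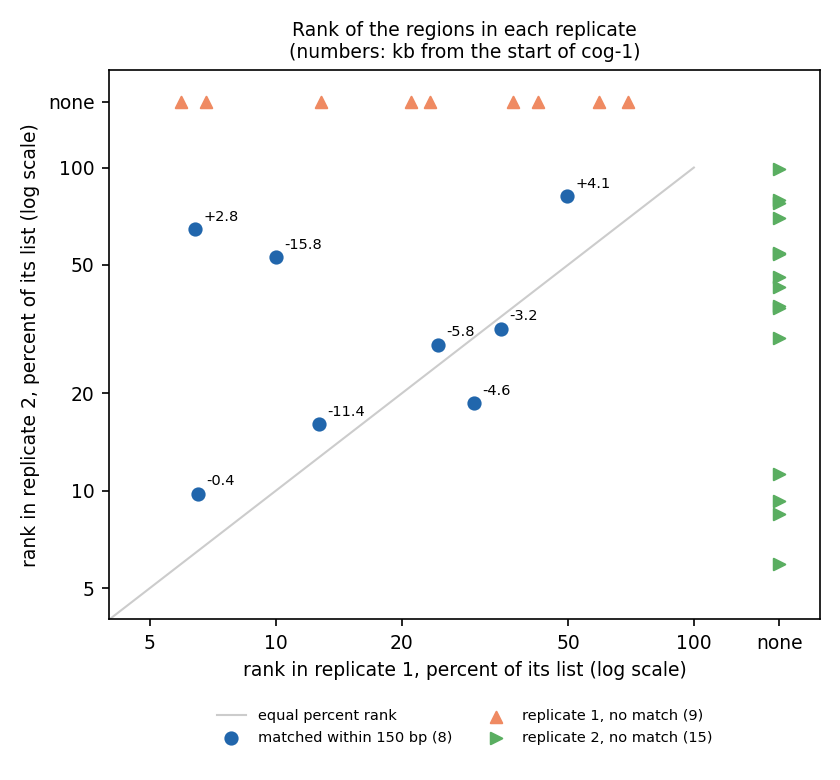
Each axis gives the rank of a region by signal as a percent of its replicate's list, on log scales with the strongest at the low end, and points are the 8 regions matched within 150 bp, labelled by kb from the start of cog-1. The triangles at the margins are the regions without a match, 9 in replicate 1 and 15 in replicate 2, and of the matched regions only the promoter site, at -0.4 kb, was among the strongest 10% of both lists.

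When each summit could be paired only once, nearest first, 8 of the 20 pooled regions had summits of both replicates within 150 bp, 4 had one of replicate 1 alone, 6 had one of replicate 2 alone and 2 had neither. Without that limit, the region at -11.5 kb would also count replicate 1 (137 bp), and the one at -0.324 kb both replicates (122 bp in replicate 1 and 129 bp in replicate 2), since these summits lay nearer to another pooled region. Over the whole pooled list, paired in the same way, 30.7% had both, 27.6% replicate 1 alone, 28.1% replicate 2 alone and 13.7% neither. With 20 regions in the stretch the intervals of the 4 shares were wide, from 19.1 to 63.9% for the first, and each held the share of the whole list. The replicates' summits also lay more densely in the stretch than over the genome, and these shares are not adjusted for that. The pooled list was made from the same reads as the replicates' lists, so it adds no independent measurement.

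The locus held many regions, most of them in the stronger 50% of the pooled list. The stretch held 0.817 pooled regions per kb, against 0.212 over chromosome II and 0.225 over the genome, a ratio to the genome of 3.63. In replicate 1 it held 0.694 per kb against 0.216 over the genome, and in replicate 2 0.98 against 0.202. Sequence within 150 bp of a pooled summit made up 23.3% of the stretch and 6.58% of the genome. The median pooled region of the stretch had a signal of 50.39, against 31.94 for the whole list, and stood at 17.7% of the ranks. In the replicates' own lists the median stood at 23.4% in replicate 1 and 37.1% in replicate 2. Of the 20 pooled regions 17 were in the stronger 50% of the list and 3 in the strongest 10%. In replicate 1 those counts were 15 and 4 of 17, and in replicate 2 15 and 4 of 24, where the weakest region stood at 98.8% of the ranks. By definition those parts hold 50% and 10% of any list. The highest signal anywhere in the pooled list was 769.3, so the 89.8 of the promoter site was far from the top of the list.

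The density fell off at both ends of the stretch in each list. The 40 kb before it held 0.25 pooled regions per kb and the 40 kb after it also 0.25. For replicate 1 the values were 0.175 before and 0.2 after, and for replicate 2 0.15 on each side. The nearest IDR peaks lay 60500 bp before and 103113 bp after the stretch. At the downstream boundary the pooled list had a region with its summit 18 bp past the end of cog-1, with a signal of 56.89 and rank 3159, and replicate 1 had one 30 bp past it with a signal of 29.32 and rank 3041. Replicate 2 had its summit inside, at 14907477, with a signal of 29.18 and rank 4219. That position is in the last exon of cog-1, near the convergent gene R03C1.1. At the upstream boundary the nearest summits outside were within R05H10.3, 346 bp before the stretch in the pooled list with rank 17108, 341 bp in replicate 1 and 437 bp in replicate 2.

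**Figure D3:**
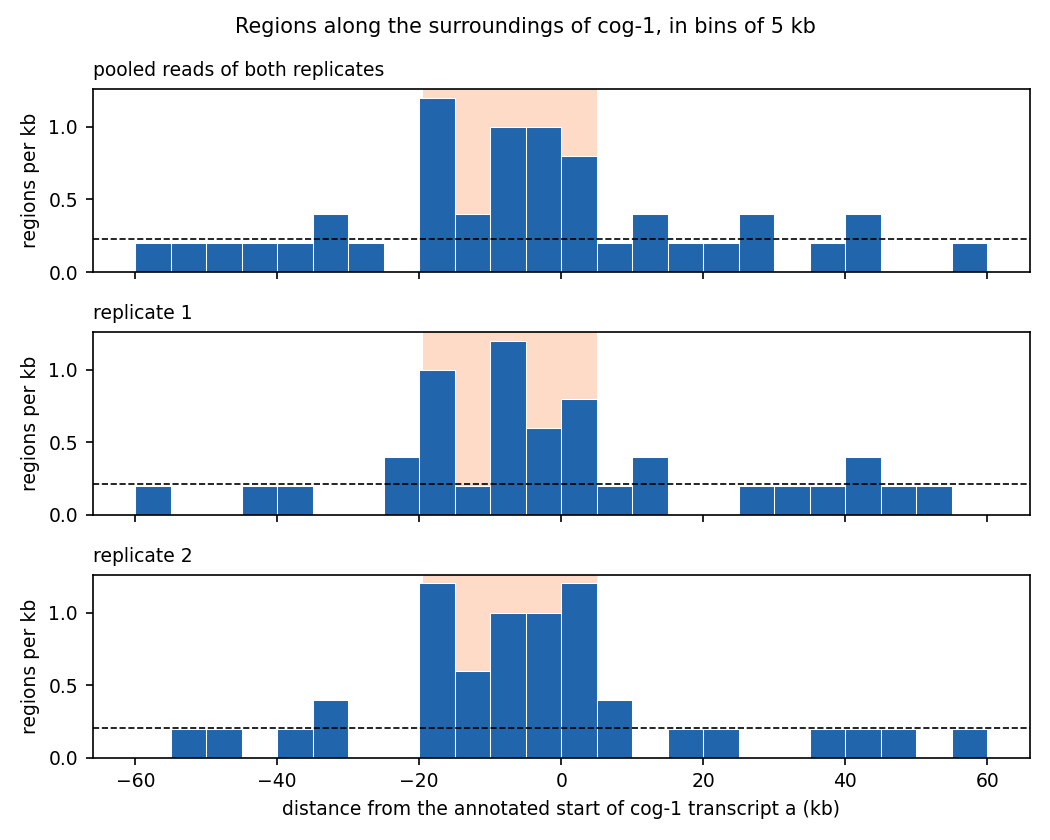
Bars give the regions per kb in bins of 5 kb around cog-1 in the pooled list and in each replicate, by distance in kb from the start of R03C1.3a.1. The shaded band is the stretch and the dashed line the density over the genome, and the bars in the band stand above those in the 40 kb on either side except in the bin from -15 to -10 kb of the pooled list and replicate 1. The bin from -20 kb also holds summits from just before the stretch.

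The neighbouring genes had fewer regions over comparable definitions of a stretch, taken from the adjacent upstream gene to the gene's own end. R05H10.3 had 4 pooled regions (0.299 per kb), gpx-2, named for the glutathione peroxidase family, 1 (0.325 per kb) and Y53F4A.2 none in 1052 bp. Y53F4A.2 lies within R05H10.3, so its stretch was the gene alone, with no upstream part. On the other side R03C1.1 had 3 (0.246 per kb) and the phosphodiesterase gene pde-3 9 (0.21 per kb). None of these stretches held an IDR peak.

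Among all 19973 protein-coding genes, 931 (4.66%) had at least as many pooled regions per kb as cog-1, a figure that includes many short stretches with few regions. Among the 1983 genes whose stretch was 0.5 to 2 times as long as that of cog-1, 10 did, cog-1 included (0.504%), and the median of those genes was 0.237 per kb and 4 regions. In the replicates' own lists the corresponding counts were 20 (1.01%) in replicate 1 and 3 (0.151%) in replicate 2. By count alone, 20 genes (0.1%) had 20 or more pooled regions. By strength cog-1 was less extreme: 8.41% of all genes and 19.1% of genes of like length held a pooled region at least as strong as its strongest. An IDR peak was present in the stretches of 10.7% of all genes and 24.4% of those of like length. Windows of the same 24480 bp moved along the chromosomes in 5 kb steps had a median of 5 pooled regions, and 29 of 20026 (0.145%) had 20 or more. Neighbouring windows overlap, so 1 dense locus can fill several of them and these are not counts of separate loci. These positions in the distribution are descriptions with no test.

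The homeobox genes compared were a set chosen by gene symbol, which may not hold every such gene. The comparison with the 98 others of this set placed cog-1 first by number of pooled regions, with 20. The next had 16, and the median was 2 in stretches of a median 7578 bp. Per kb, cog-1 was the fourth, against a median of 0.254. The 3 above it, named here after their values were seen, were ceh-87, with 2 regions in 1341 bp, the Iroquois-type gene irx-1, with 12 regions in 8269 bp and 6 IDR peaks, and the Msx-type gene vab-15, with 10 regions in 11767 bp. By its strongest region cog-1 came 13th in the pooled list, 9th in replicate 1 and 12th in replicate 2. Of the other homeobox genes 14 (14.3%) held an IDR peak in their stretch.

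**Figure D4:**
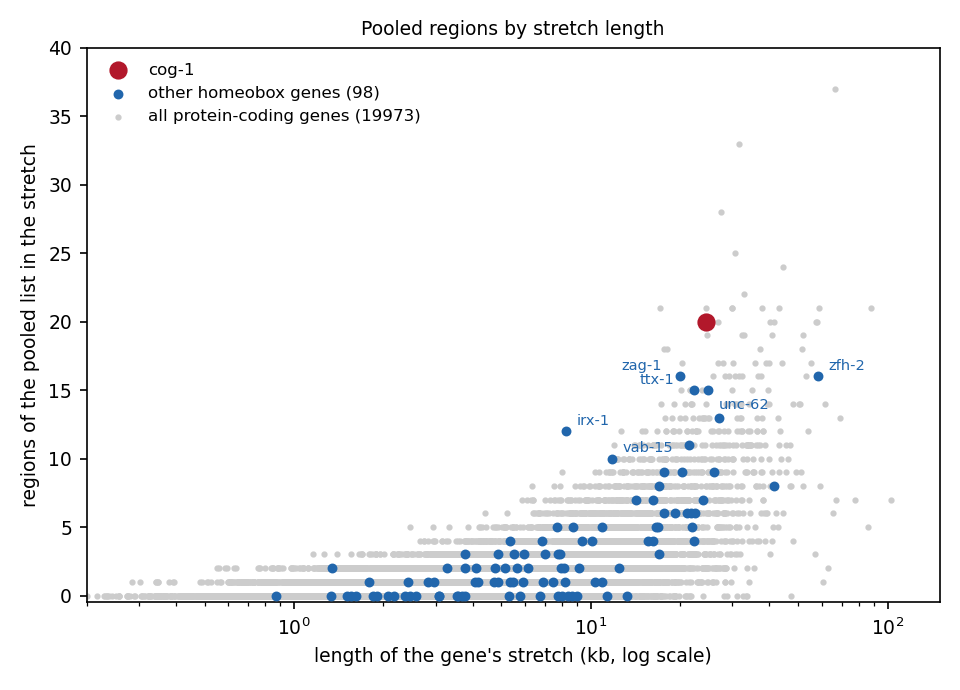
Each point is a protein-coding gene, with the length of its stretch in kb on a log scale and the number of pooled regions in it, for cog-1, 98 other homeobox genes and all 19973 genes. With 20 regions in 24480 bp cog-1 lies above each of these 98 homeobox genes, of which none had more than 16, and among the upper genes of like length.

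The homeobox genes whose strongest regions ranked most like those of cog-1, by Euclidean distance over the log10 percent rank in the 3 lists, were ttx-1 at 0.111, ceh-62 at 0.176, ceh-58 at 0.2, ceh-48 at 0.224 and zfh-2 at 0.225. The gene ttx-1 encodes an Otx-type homeodomain protein needed in the AFD thermosensory neurons. The strongest region stood at 6.17% of the pooled list for cog-1 and at 5.69% for ttx-1, which had 15 pooled regions in 22198 bp (0.676 per kb). The others had between 3 pooled regions, at the onecut-type gene ceh-48, and 16 regions, in the 58397 bp of the zinc finger homeobox gene zfh-2. Each held 1 IDR peak; a strongest pooled rank near that of cog-1, for which they were chosen, already implies at least 1. The likeness rests on 1 region per gene and list.

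Short sequence words were counted on both strands in the 101 bp around each pooled summit. TAAT, the homeodomain core, was present at 15 of the 20 summits of the stretch (75.0%, exact interval 50.9 to 91.3%). It was present in 68.2% of consecutive windows of that length along the stretch, 61.6% of those along chromosome II, 64.3% at all pooled summits and 38.8% at the IDR peaks. The share at the summits of the stretch could not be told from that of the stretch as a whole at this number of regions. At the replicates' summits TAAT was present at 12 of 17 and 19 of 24. The core was more frequent in the stretch, with 16.3 per kb against 12.01 along chromosome II.

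The longer forms were rarer. TTAATT, which contains TAAT, occurred at 4 of the 20 summits, against 18.2% of windows along the stretch and 17.04% of all pooled summits. TTAATTA, which contains both, occurred at none of the 20, for which the exact interval reaches 16.8%, against 3.84% of all pooled summits. There were 8 copies of TTAATTA in the stretch (0.327 per kb, against 0.356 along chromosome II), the nearest 111 bp from a pooled summit in intron 2. The printed sites ranged from 0 cores in intron 3 to 5 at the 0.874 kb site in intron 2, while the longer promoter window held 6.

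Of the other words searched, GAGAGA occurred at 3 of the 20 summits (interval 3.21 to 37.9%), against 28.9% of IDR peaks, 10.6% of all pooled summits and 5.46% of windows along chromosome II. GAAGCC occurred at 2 and GAAACC at none, against 2.63% and 4.37% of all pooled summits. GAGAGA and GAAGCC were each at 0 of the 17 summits of replicate 1 and at 3 of the 24 of replicate 2. The median GC content of the 101 bp windows was 36.6% at the pooled summits of the stretch, close to the 35.6% of all pooled summits, and below the 47.5% of the IDR peaks. The stretch as a whole had a GC content of 35.3%, against 36.2% for chromosome II. A match of a word is a description of the sequence and not evidence of binding there.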

How the data were processed

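COG-1-GFP was immunoprecipitated from 2 biological replicates of 1 group. Per the deposited file listing, the authors called 1 list per replicate and 1 list on the replicates pooled, each against a control alignment, and drew the IDR list from these. Because the lists of the replicates and the pooled list hold background as well as peaks, being listed does not mean being enriched. The sources used here name no aligner, peak caller, IDR threshold or strain for the control alignment. The signal in the deposited lists has no stated scaling to depth and was ranked only within a list. The deposited q-value per region is on the −log10 scale, capped at 3.45 in the pooled list, and was turned back into a q-value here. All 1841 IDR peaks were identical to a pooled region, with a lowest pooled rank of 1841. Read depth was not used, so precision rests on numbers of regions.

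Only the ce11 lists were used, with the Ensembl release 115 annotation, and 0 regions ran past a chromosome end. Every summit was the start plus the summit offset, counted from 1. Regions were matched nearest first within 150 bp. A gene's stretch ran from the near end of the adjacent upstream protein-coding gene to its own end. Where another protein-coding gene overlapped its start, the stretch was the gene alone, with no upstream part. The genes named were cog-1, its neighbours and the 5 homeobox genes nearest in percent rank; others are said to be chosen after their values were seen. No test was made, since there is 1 group. Alternatives changed the boundary, threshold, matching distance, list, ranking measure, genes compared and sequence window. The matching and counting were checked on made-up regions. The stretch, the gene list and the words searched were chosen with earlier results of these data known. Python 3.11.15, pandas 2.3.3, numpy 2.4.6 and scipy 1.17.1 were used.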

Additional observations from a re-analysis of the deposited data

How the results depend on the processing

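The 20 pooled regions of the stretch became 4 with a q-value under 0.05 and 9 from 5 kb upstream, while any overlap gave 21 and a single replicate's list 17 to 24. The IDR peak was not in the upper 50% of its list by signal (0 peaks). Taking the strongest 1841 regions of 1 replicate's own list gave 4 in the stretch in replicate 1 and 2 in replicate 2. The promoter site was among those of replicate 1 (rank 1406) but not among those of replicate 2 (rank 1984). The strongest region, the promoter site, stood at 6.17% of the pooled ranks by signal. In a single replicate's list the strongest region stood at 5.93 to 5.94%, and was another site in each. By q-value the promoter site stood at 3.1% of the pooled list. Its −log10 q-value of 3.45 was the cap, and regions tied there were given their mean rank, so 3.1% is not a higher standing. The share of genes with as many regions per kb, 4.66%, became 1.86% with the gene body and 2 kb upstream, 0.504% among genes of like length, and 2.33 to 6.73% in a single replicate's list. TTAATT occurred at 7 summits (35.0%) within 100 bp, against 4 within 50 bp. At the wider setting it was present at 31.57% of all pooled summits and in 32.23% of windows along the stretch. The matched share of 47.1% lay between 23.5% (within 50 bp) and 64.7% (any overlap). The TAAT count of 15 became 19 (95.0%) within 100 bp, where 85.19% of all pooled summits and 89.26% of windows along the stretch held TAAT. No paired analysis was possible because there is 1 group. The number of regions limits all shares, and no list allows a comparison with untagged embryos.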
